A study of Bos taurus with 6 samples.

Results

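The cytosolic ribosomal protein genes were described in longissimus dorsi muscle of Wagyu, as Japanese black cattle are called here, and of Chinese Red Steppes. Genes were chosen by name: the gene name, or the symbol where the name was only an Ensembl identifier, had to start with RPL or RPS and a digit, or be RPLP0, RPLP1, RPLP2 or RPSA, and ribosomal protein S6 kinases were left out. The rule found 92 of the 21972 genes in the expression table. Of these, 45 encode canonical proteins of the large subunit and 31 canonical proteins of the small subunit, which makes 76 canonical genes. Another 7 are paralogues (RPL3L, RPL7L1, RPL10L, RPL22L1, RPL26L1, RPS27L and RPS4Y1), 2 carry a related name (RPS19BP1, which encodes a protein that binds RPS19, and the readthrough RPL36A-HNRNPH2), and 7 are rows without a gene name.

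The muscle came from males of 28 months, 3 of them Wagyu (libraries WC616, WC719 and WC921) and 3 of them Chinese Red Steppes (libraries RC4, RC5 and RC6). Each animal gave 1 poly(A) library. The animals of a breed had the same sire and came from the same institution, so breed, sire and origin cannot be told apart. Values are FPKM, fragments counted to a gene after division by its length and by the counted reads of the library. This takes gene length into account when levels are compared between genes, but is less sure for genes about as short as the sequenced fragments.

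The cytosolic ribosome consists of a small subunit, which reads the mRNA, and a large subunit, which joins the amino acids. Each ribosomal protein is present in a single copy per ribosome, apart from the acidic proteins RPLP1 and RPLP2, which form dimers on the stalk of the large subunit. Ribosomal protein mRNAs start with a tract of pyrimidines (the TOP motif), through which the mTORC1 kinase pathway controls their translation, and muscle depends on ribosome supply when it grows.

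The libraries held between 15438095 and 16197141 reads counted to genes, and 2 of them stood apart. In RC6, the 13 mitochondrially encoded genes took 16.0% of the summed FPKM against 6.64 to 8.94% in the other libraries, and the summed FPKM of 9 slow fibre genes was 81287 against 26123 to 49239. The defining genes of muscle fibres were high in every library, with a sum over 8 genes of 77532 to 92581 FPKM, against 52.9 to 98.1 FPKM for 7 fat cell genes. The fat cell sum was lower in all Wagyu libraries (52.9 to 55.7 FPKM) than in Chinese Red Steppes (65.8 to 98.1 FPKM), although 1 of the 7 genes was highest in WC616. Values in bulk muscle cannot tell fewer cells of a type from less RNA per cell.

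Ribosomal protein mRNAs were abundant, and their order was nearly the same in every animal. The median canonical gene had a mean of 405 FPKM over the 6 libraries, with quartiles of 196 and 530 FPKM, while the median of all 9990 genes with a mean of at least 1 FPKM was 7.11. Between 100 and 1000 FPKM lay 65 of the 76 canonical genes, 3 were above and 8 below. Across these 76 genes, the Spearman correlation between the breed means was 0.992, and the lowest between any pair of libraries was 0.976. The points of this correlation are genes measured in the same libraries and are no independent replicates.

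**Figure D1:**
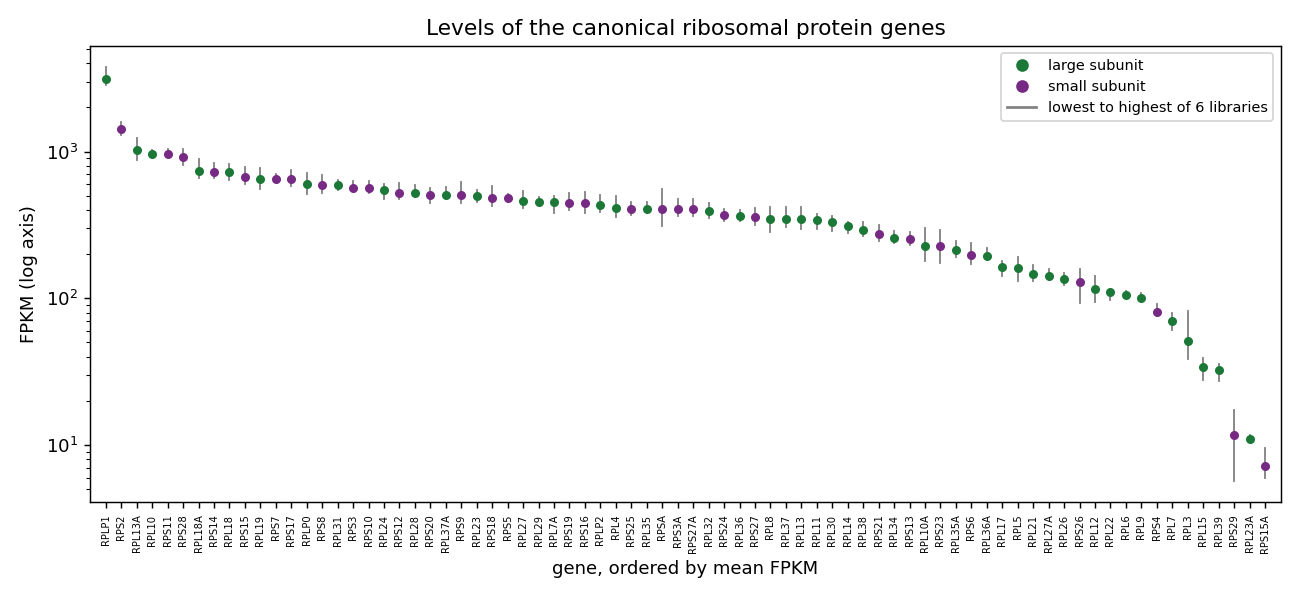
Mean FPKM (log axis) of the 76 canonical ribosomal protein genes in order of level, with lines from the lowest to the highest of the 6 libraries; green points are large subunit and purple points small subunit genes. The level ran from 3106 FPKM for RPLP1 to 7.14 FPKM for RPS15A, and most lines are short beside this span.

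The highest gene was RPLP1, an acidic protein of the stalk that recruits the translation factors. RPLP1 measured 3795, 3022 and 2994 FPKM in Wagyu, and 2878, 2833 and 3116 FPKM in Chinese Red Steppes, always in the order of libraries given above. The breeds overlapped, with a log2 fold change (Wagyu minus Chinese Red Steppes, on the log2(FPKM + 1) scale) of 0.14 (SE 0.17). Its partner RPLP2 lay much lower, at 506, 401 and 419 FPKM in Wagyu and 404, 386 and 467 FPKM in Chinese Red Steppes. RPLP0, the scaffold to which both acidic proteins bind, measured 581 to 714 FPKM in Wagyu and 601, 566 and 514 FPKM in Chinese Red Steppes. RPLP2 and RPLP0 were thus at similar levels, both highest in WC616, and both overlapped between the breeds. A row without a gene name that carries the symbol RPLP1 was listed beside them at 145, 131 and 114 FPKM in Wagyu and 109, 119 and 133 FPKM in Chinese Red Steppes.

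The next genes in the order were RPS2 and RPL13A. RPS2, a small subunit protein at the entry of the mRNA channel, measured 1588, 1377 and 1492 FPKM in Wagyu and 1460, 1370 and 1307 FPKM in Chinese Red Steppes. RPL13A, a large subunit protein, measured 1234, 1012 and 993 FPKM in Wagyu and 1052, 969 and 870 FPKM in Chinese Red Steppes. WC616 was the highest and RC6 the lowest library for both genes, and the other libraries of the breeds were interleaved.

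At the low end stood RPS15A, RPL23A and RPS29, although their proteins are needed in every ribosome. RPS15A, a small subunit protein, measured 7.42, 9.55 and 5.94 FPKM in Wagyu and 6.78, 6.65 and 6.49 FPKM in Chinese Red Steppes, on 44 to 71 reads. RPL23A, which lies at the exit of the peptide tunnel, measured 10.6, 10.6 and 10.8 FPKM in Wagyu and 11.7, 10.5 and 11.3 FPKM in Chinese Red Steppes, on 92 to 105 reads. RPS29, a small zinc-binding protein of the small subunit, measured 13.3, 17.3 and 9.42 FPKM in Wagyu and 9.83, 14.9 and 5.68 FPKM in Chinese Red Steppes, on 15 to 48 reads. RPLP1 was thus listed 435-fold above RPS15A by mean FPKM. The counting of reads shared between near-identical copies is not described in the sources used here, and its part in these low levels was not tested. RPS29 was listed at only 171 bases, and the part of this short length was not tested either.

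FAU and RACK1 encode canonical ribosomal proteins that the name rule does not take, and their levels lay within the same range. FAU, which encodes a fusion with the small subunit protein S30, measured 508, 467 and 450 FPKM in Wagyu and 444, 478 and 488 FPKM in Chinese Red Steppes. RACK1, a signalling scaffold on the small subunit listed as GNB2L1, measured 586, 541 and 553 FPKM in Wagyu and 547, 541 and 505 FPKM in Chinese Red Steppes. WC616 was again the highest library for both genes, and the rest of the libraries overlapped between the breeds.

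The comparison of the breeds asks whether ribosomal protein mRNAs differ between a breed that the paper scored as more marbled and a less marbled one. The summed FPKM of the fat cell genes given above was not higher in the more marbled breed. No ribosomal protein gene passed the test in either direction. Of the 92 genes, 87 had a mean of at least 1 FPKM and were tested with limma, and the smallest adjusted p (limma, Benjamini-Hochberg over 9990 genes, threshold 0.05) was 0.336. Over all genes, 0.0100% passed as higher and 0.0100% as lower in Wagyu, which is 1 gene each. At an unadjusted p under 0.05, 2 of the 87 genes (2.30%) were higher in Wagyu, RPL3 and RPL10A, against 8.64% of all genes. At the same level, 0 of the 87 were lower, against 5.87% of all genes. Tests on reads recovered from the FPKM values called 0 of the 87 genes as well, against a background of 0.0685% of genes with edgeR and 1.92% with DESeq2. At an unadjusted p under 0.05, edgeR gave 0 of 87 and DESeq2 1 of 90 ribosomal protein genes. The share of all genes at that level was not computed for edgeR and DESeq2, so these counts have no background.

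The intervals of these differences were narrow. The 95% interval of the fold change lay wholly within 1.5-fold in either direction for 74 of the 87 genes (85.1%) and within 2-fold for 84 (96.6%). Over all genes tested, the same held for 37.0% and 81.0%. The median level was 349 FPKM for the 87 genes and 7.11 FPKM for all genes, and this comparison was not matched for level. Among the 76 canonical genes, 70 lay within 1.5-fold and 75 within 2-fold. The median distance from the estimate to either end of the interval was 0.33 on the log2 scale for ribosomal protein genes and 0.44 for all genes.

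**Figure D2:**
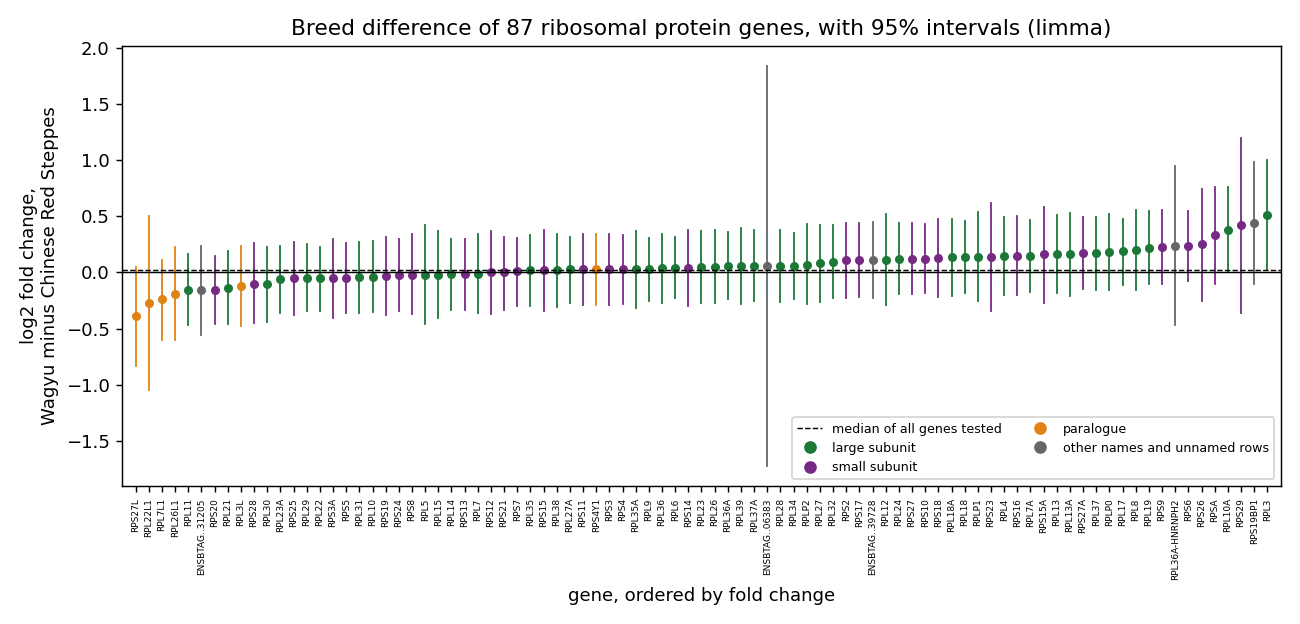
Log2 fold change (Wagyu minus Chinese Red Steppes, n = 3 each) of the 87 ribosomal protein genes tested, with 95% limma intervals, in order of size; the dashed line is the median of all genes tested. Fold changes ran from -0.39 for RPS27L to 0.51 for RPL3, 5 of the 6 paralogues (orange) lay below 0, and the widest interval is that of the unnamed RPS3A row.

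The fold changes leaned slightly towards Wagyu, and this lean rested on WC616 and on the scaling. The median log2 fold change was 0.051 over the 87 genes, against 0.026 over all genes, and 58 (66.7%) lay above 0 against a background of 53.7%. The large subunit had a median of 0.058 with 33 of 45 genes above 0, and the small subunit 0.028 with 20 of 31. Without WC616 the median over the 87 genes was -0.015 with 38 genes above 0, while that of all genes was 0.051. With quantile normalization 37 genes (42.5%) lay above 0 and the median was -0.021, whereas with an equal sum per library 75 (86.2%) lay above 0 and the median was 0.106.

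Without any overlap, 6 of the 87 genes (6.90%) were higher in all Wagyu than in all Chinese Red Steppes libraries, against 11.4% of all genes. These were RPL3, RPL10A, RPL17, RPL19, RPS6 and RPS9. Lower without overlap was RPL7L1 alone (1.15%), against 9.16% of all genes. Both shares lay below the background.

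RPL3, a large subunit protein that reaches towards the site where peptide bonds form, had the largest fold change. RPL3 measured 81.6, 51.6 and 50.2 FPKM in Wagyu (61.1 ± 17.7, SD, n = 3) and 47.9, 39.0 and 38.6 FPKM in Chinese Red Steppes (41.8 ± 5.26, SD, n = 3). The groups did not overlap, but WC616 was far above its breed and the gap between the others was small. The log2 fold change was 0.51 (SE 0.21, 95% interval 0.02 to 1.0, limma adjusted p = 0.336). Under the alternative settings it lay between 0.28 (without WC616) and 0.63, and the adjusted p between 0.254 and 0.557.

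RPL3L is the paralogue that takes the place of RPL3 in ribosomes of striated muscle, as known from mice. RPL3L measured 240, 196 and 198 FPKM in Wagyu (211 ± 24.6, SD, n = 3) and 261, 231 and 199 FPKM in Chinese Red Steppes (230 ± 30.8, SD, n = 3). It exceeded RPL3 in every library, and the breeds overlapped (log2 fold change -0.12, SE 0.16, 95% interval -0.48 to 0.24, between -0.22 without RC6 and -0.03 without RC4). The ratio of RPL3L to RPL3, in FPKM, was 2.94, 3.80 and 3.94 in Wagyu and 5.44, 5.91 and 5.16 in Chinese Red Steppes. RPL3L thus made up 74.6, 79.2 and 79.8% of both genes together in Wagyu (77.9 ± 2.83, SD, n = 3), and 84.5, 85.5 and 83.8% in Chinese Red Steppes (84.6 ± 0.894, SD, n = 3). This share, which does not depend on the scaling between libraries, was lower in all 3 Wagyu libraries, by 6.73 percentage points on average. In a two-sided exact permutation test the difference had p = 0.1, the smallest that 3 against 3 libraries allow, and p = 0.2 after Benjamini-Hochberg adjustment over 6 paralogue pairs. The difference did not pass 0.05, and it was -5.11 points without WC616.

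**Figure D3:**
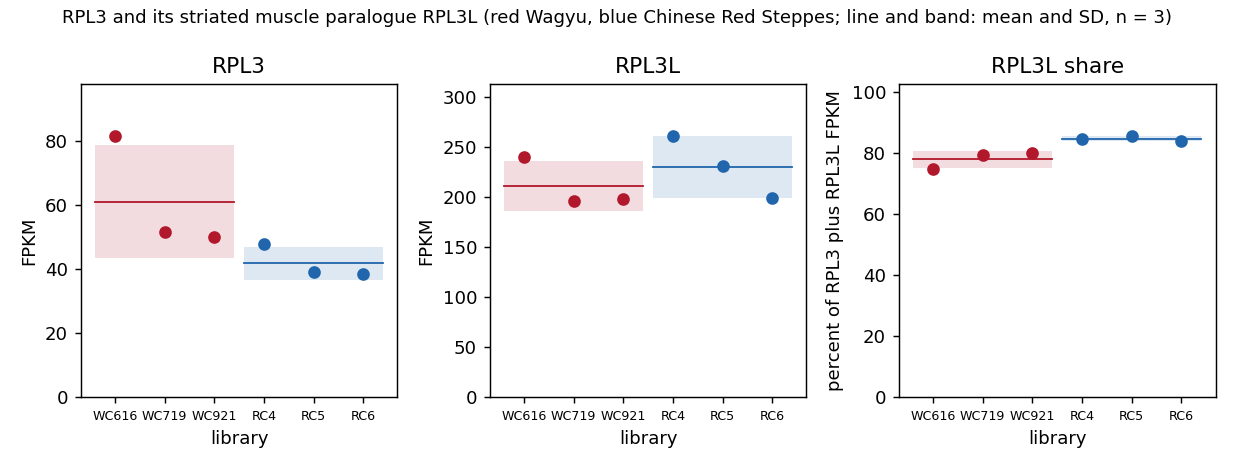
FPKM of RPL3, FPKM of RPL3L, and RPL3L as a percentage of both, by library; red points are Wagyu, blue points Chinese Red Steppes, and line and band give the mean and SD (n = 3). RPL3 was highest in WC616 at 81.6 FPKM, RPL3L overlapped between the breeds, and the RPL3L share was 74.6 to 79.8% in Wagyu and 83.8 to 85.5% in Chinese Red Steppes.

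The remaining paralogues were minor beside their parent genes. RPS27L, a paralogue of RPS27 and a target of p53 in human cells, measured 67.9, 58.3 and 43.1 FPKM in Wagyu and 70.2, 82.1 and 67.5 FPKM in Chinese Red Steppes. WC616 alone reached into the range of the other breed, just above RC6, and the log2 fold change was -0.39 (SE 0.19, limma adjusted p = 0.385), or -0.21 without WC921. RPS27, a zinc-binding protein of the small subunit, measured 410, 347 and 361 FPKM in Wagyu and 347, 364 and 314 FPKM in Chinese Red Steppes. RPS27L was 14.2, 14.4 and 10.7% of the pair in Wagyu and 16.8, 18.4 and 17.7% in Chinese Red Steppes. The shares did not overlap (exact permutation p = 0.1, adjusted 0.2).

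RPL7L1, a relative of RPL7 that takes part in ribosome assembly in human cells, measured 26.3, 26.6 and 25.1 FPKM in Wagyu and 29.0, 37.3 and 27.4 FPKM in Chinese Red Steppes. RPL7 itself measured 77.5, 71.8 and 61.2 FPKM in Wagyu and 70.1, 79.1 and 63.0 FPKM in Chinese Red Steppes. RPL7L1 lay lower in all 3 Wagyu libraries, while RPL7 was interleaved. The fold change of RPL7L1 was -0.24 (SE 0.15, limma adjusted p = 0.493), and its share of the pair was 25.4, 27.0 and 29.1% in Wagyu and 29.3, 32.1 and 30.3% in Chinese Red Steppes (exact permutation p = 0.1, adjusted 0.2). The gap between WC921 and RC4 in this share was small.

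RPL22L1 is a paralogue of RPL22, an RNA-binding protein of the large subunit. RPL22L1 measured 2.71, 5.46 and 6.59 FPKM in Wagyu and 3.69, 8.08 and 6.56 FPKM in Chinese Red Steppes, while RPL22 measured 116, 109 and 98.0 FPKM and 109, 113 and 113 FPKM. RPL22L1 was lowest in WC616, where RPL22 was highest. Its log2 fold change was -0.27 with a wide 95% interval of -1.05 to 0.50, on 50 to 148 reads.

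RPL26L1, a close copy of RPL26, measured 7.02, 8.78 and 8.43 FPKM in Wagyu and 7.80, 8.95 and 11.4 FPKM in Chinese Red Steppes. RPL26, which is also known to bind p53 mRNA in human cells, measured 149, 141 and 125 FPKM in Wagyu and 127, 149 and 124 FPKM in Chinese Red Steppes. The breeds overlapped in both genes. The shares of RPL22L1 and RPL26L1 in their pairs overlapped as well (exact permutation p = 0.600 each, adjusted 0.72).

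RPS4Y1 carries the name of a Y-linked human gene. RPS4Y1 measured 25.4, 26.4 and 24.0 FPKM in Wagyu and 27.9, 24.1 and 22.6 FPKM in Chinese Red Steppes. Its counterpart RPS4X, listed as RPS4, measured 92.0, 76.3 and 76.7 FPKM in Wagyu and 83.7, 76.4 and 79.5 FPKM in Chinese Red Steppes. Both genes had a log2 fold change of 0.03, and the share of RPS4Y1 in the pair was 23.7% in both breeds (exact permutation p = 1.0).

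RPL10L, a paralogue of RPL10 known from the testis in mice, was listed at 0 in 5 libraries and at 0.166 FPKM in RC5, and was not tested. RPL10, which helps to shape the catalytic centre, measured 1014, 907 and 923 FPKM in Wagyu and 1022, 949 and 951 FPKM in Chinese Red Steppes. RPL36A measured 222, 190 and 186 FPKM in Wagyu and 187, 192 and 193 FPKM in Chinese Red Steppes, and RPL39, a small protein in the wall of the peptide tunnel, 35.1, 34.0 and 29.9 FPKM and 27.3, 32.4 and 35.4 FPKM. The breeds overlapped in all 3 of these large subunit genes. The readthrough RPL36A-HNRNPH2 reached 0.659 to 2.89 FPKM on 5 to 22 reads.

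Besides RPL3 and RPS27L, 6 genes were among the 8 with the smallest p, and none passed the adjustment. RPL10A, the protein of the mobile stalk through which spent tRNA leaves, measured 303, 214 and 263 FPKM in Wagyu and 201, 212 and 181 FPKM in Chinese Red Steppes (log2 fold change 0.38, SE 0.16, limma adjusted p = 0.344). WC719 and RC5 nearly met, and the other libraries were apart. RPSA, which is also known as a laminin receptor, measured 560, 380 and 426 FPKM in Wagyu and 309, 392 and 373 FPKM in Chinese Red Steppes (log2 fold change 0.33, SE 0.19, limma adjusted p = 0.445). WC616 stood alone, the breeds overlapped, and without WC616 the log2 fold change was 0.18. RPS19BP1, a nucleolar protein also known in human cells as a regulator of the deacetylase SIRT1, measured 50.9, 43.6 and 39.4 FPKM in Wagyu and 38.6, 39.4 and 22.4 FPKM in Chinese Red Steppes (log2 fold change 0.44, SE 0.23, limma adjusted p = 0.420). RC6 was far below the other libraries, and without it the log2 fold change was 0.18.

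RPS6, the substrate of the S6 kinases downstream of mTORC1, measured 240, 194 and 203 FPKM in Wagyu and 180, 186 and 172 FPKM in Chinese Red Steppes (log2 fold change 0.24, SE 0.13, limma adjusted p = 0.457). RPS9, a small subunit protein near the mRNA entry, measured 619, 495 and 522 FPKM in Wagyu and 473, 469 and 446 FPKM in Chinese Red Steppes (log2 fold change 0.23, SE 0.14, limma adjusted p = 0.484). Both were separated by a small gap and had their highest value in WC616, without which each log2 fold change was 0.14. RPL19, which bridges the subunits, measured 770, 672 and 668 FPKM in Wagyu and 611, 634 and 560 FPKM in Chinese Red Steppes (log2 fold change 0.22, SE 0.14, limma adjusted p = 0.487). RPL17, at the end of the peptide tunnel, differed in that WC616 was not its highest library, with 171, 173 and 181 FPKM in Wagyu and 141, 168 and 154 FPKM in Chinese Red Steppes (log2 fold change 0.19, SE 0.13, limma adjusted p = 0.530).

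The main pattern among the ribosomal protein genes was the height of the library WC616, rather than a separation of the breeds. Animal and library cannot be told apart, because no animal gave a further library, and the cause of this height was not tested. WC616 was the highest of the 6 libraries for 60 of the 87 genes (69.0%), against 12.9% of all genes tested. It was the highest for 33 of 45 large subunit and 25 of 31 small subunit genes. It was the lowest for 0 of the 76 canonical genes, against 1941 of all 9990 genes tested. It was the highest of all libraries for 0 of the 6 paralogues tested, although RPL3L and RPS27L were higher in WC616 than in the other Wagyu, while RPL22L1 and RPL26L1 were lowest there. WC616 exceeded the mean of the other Wagyu libraries by a median of 0.237 on the log2 scale over the 87 genes, while all genes had a median of -0.079. The excess was present in 81 of the 87 genes. Under the other scalings tried, this median lay between 0.171 and 0.302, and between 77 and 84 genes were higher in WC616 than in the other Wagyu. The number with their highest value in WC616 moved from 60 to between 47 and 63.

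**Figure D4:**
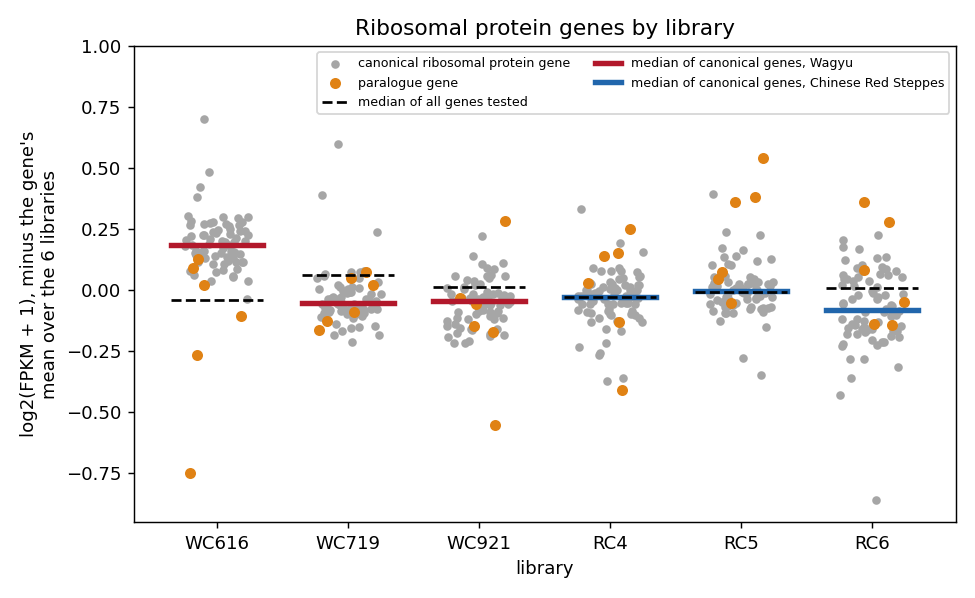
Level of each canonical ribosomal protein gene (grey) and each paralogue (orange) in each library, as log2(FPKM + 1) minus the gene's mean over the 6 libraries; coloured bars are medians of the 76 canonical genes and dashed lines medians of all 9990 genes tested. The canonical median was 0.184 in WC616 and between -0.082 and -0.003 in the other libraries, and the paralogues lay on both sides of 0 in WC616.

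The summed level gave the same picture. Together the 92 genes summed to 38507, 32323 and 32616 FPKM in Wagyu and 32872, 33173 and 32260 FPKM in Chinese Red Steppes. Their share of all reads counted to genes was 2.47, 2.07 and 2.10% in Wagyu (2.21 ± 0.222, SD, n = 3) and 2.11, 2.12 and 2.05% in Chinese Red Steppes (2.09 ± 0.0397, SD, n = 3). The 95% Wilson interval of WC616 was 2.46 to 2.48%, which covers counting error only. The breeds differed by 0.118 percentage points, and by -0.00981 points without WC616. Of the summed FPKM, the genes took 5.73, 4.89 and 5.01% in Wagyu and 4.88, 4.94 and 4.49% in Chinese Red Steppes. This difference of 0.437 points was 0.178 without WC616, and 0.281 when the mitochondrially encoded genes were left out of the sum.

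RC6 was the lowest library for 37 of the 87 genes (42.5%), against 23.7% of all genes. It lay below the mean of the other Chinese Red Steppes by a median of -0.078 on the log2 scale, with 56 genes lower, while all genes had a median of 0.032. With the mitochondrially encoded genes left out of an equal sum, the median was -0.057 and 52 genes were lower, and with an equal sum over all genes it was -0.174 and 65 genes were lower. The share of the summed FPKM without those genes was 5.36, 5.43 and 5.35% in RC4, RC5 and RC6, so that RC6 and RC4 were then nearly equal.

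Markers of some other cell types were high in WC616 and those of others were not. Summed over 6 macrophage genes, WC616 had 27.4 FPKM against 12.9 and 13.4 in WC719 and WC921, but RC4 had 24.4, and 3 of the 6 genes were highest in WC616. CD163 was higher in WC921 (1.13 FPKM) than in WC616 (0.446), and CD68 was highest in RC6 (2.24). Summed over 6 fibroblast genes, WC616 had 209 FPKM, WC921 had 192 and the other libraries 67.6 to 156, and 4 of the 6 genes were highest in WC616. Summed over 6 endothelial genes, WC616 had 111 FPKM against 139 and 125 in WC719 and WC921, and 0 of the 6 were highest there. The 4 satellite cell genes summed to 3.67 FPKM in WC616 and 1.71 to 3.42 in the other libraries, with 1 of the 4 highest in WC616. The 6 T and B cell genes summed to 3.09 FPKM in WC616 against 1.80 and 1.41 in WC719 and WC921, but RC4 had 4.36. No gene of these lists was at 0 in all libraries, and the part of these cells in the height of WC616 was not tested. Ribosomal protein genes are short, with 76 of the 87 below 1000 bases. In WC616 the median deviation from a gene's own mean was 0.178 on the log2 scale for these 76 genes, of which 73.7% were highest there. It was 0.036 for the 1886 other tested genes below that length, of which 19.6% were highest in WC616. The part of gene length was not tested.

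The balance of the mRNAs of the subunits varied little between libraries. The ratio of the summed FPKM of large to small subunit genes was 1.27, 1.28 and 1.27 in Wagyu (1.27 ± 0.00758, SD, n = 3) and 1.25, 1.23 and 1.23 in Chinese Red Steppes (1.24 ± 0.0138, SD, n = 3). The breeds did not overlap in this ratio, which was higher by 0.0362 in Wagyu and was not tested. RPLP1 weighed heavily in it, with 0.457 to 0.564% of the summed FPKM in Wagyu and 0.422 to 0.434% in Chinese Red Steppes. All large subunit genes together took 2.70 to 3.16% and 2.43 to 2.68%. The ratio without RPLP1 was not examined, so a difference of the subunits as a whole is not shown. Within Wagyu, the median SD of log2(FPKM + 1) was 0.152 for ribosomal protein genes and 0.188 for all genes. Within Chinese Red Steppes it was 0.098 against 0.228. These SD comparisons were not matched for level. RPS7 was among the steadiest canonical genes (SD of log2 FPKM 0.06 over 6 libraries), and RPL23A and RPL6 had the same SD. RPS29 (0.58), RPL3 (0.39) and RPS26 (0.31) varied most. RPS26, which lines the mRNA exit channel, measured 145, 149 and 121 FPKM in Wagyu and 159, 104 and 93.4 FPKM in Chinese Red Steppes, with RC4 as the highest library.

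A row without a gene name that carries the symbol RPS3A (ENSBTAG00000006383) varied in another way. It measured 14.9, 58.0 and 13.2 FPKM in Wagyu and 12.0, 11.9 and 69.0 FPKM in Chinese Red Steppes, on 188, 747 and 169 reads and 153, 149 and 847 reads. It was therefore high in 1 animal of each breed, WC719 and RC6, and low in the other 4. RPS3A itself, a small subunit protein also known from initiation of translation, measured 473, 363 and 363 FPKM in Wagyu and 399, 439 and 399 FPKM in Chinese Red Steppes and was not high in WC719 or RC6. Among the other unnamed rows, that with the symbol RPS4X measured 1.17 to 1.96 FPKM, those with RPL22 and a second RPS3A were listed at 0 in every library, and those with RPS14 and RPS15A reached at most 0.228 and 0.659 FPKM.

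**Figure D5:**
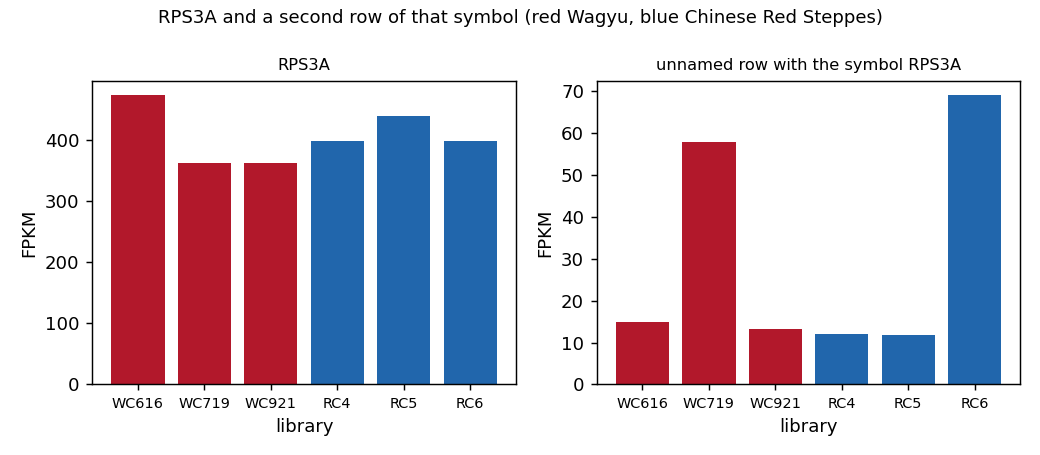
FPKM of RPS3A and of the unnamed row with the symbol RPS3A, by library (red Wagyu, blue Chinese Red Steppes). The unnamed row stood at 58.0 FPKM in WC719 and 69.0 in RC6 and at 11.9 to 14.9 in the other 4 libraries, whereas RPS3A lay between 363 and 473 FPKM in all 6.

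Genes that work with the ribosomal proteins were taken from lists. Among 15 other mRNAs known to carry the TOP motif, 0 passed the test, 10 had a fold change above 0 (66.7%, background 53.7%) with a median of 0.151, and 5 were higher in Wagyu without overlap (background 11.4%). EEF2, the elongation factor that moves the ribosome along the mRNA, measured 706, 653 and 819 FPKM in Wagyu and 512, 485 and 413 FPKM in Chinese Red Steppes (log2 fold change 0.63, SE 0.16, limma adjusted p = 0.201). EIF4B, a cofactor of the initiation helicase, measured 175, 172 and 194 FPKM in Wagyu and 147, 142 and 105 FPKM in Chinese Red Steppes (log2 fold change 0.47, SE 0.16, limma adjusted p = 0.293). The breeds were apart in both genes, and in neither was WC616 the highest. VIM was apart as well but highest in WC616, with 106, 99.4 and 102 FPKM in Wagyu. In Chinese Red Steppes VIM measured 84.4, 69.3 and 80.8 FPKM (log2 fold change 0.39, SE 0.13, limma adjusted p = 0.282). Of the 5 genes below 0, NAP1L1 had the largest change (log2 fold change -0.43, SE 0.23, limma adjusted p = 0.418), and the breeds overlapped. WC616 was the highest library for 6 of these 15 genes (40.0%, background 12.9%), and their median deviation in WC616 was 0.153 on the log2 scale, against 0.173 for the ribosomal protein genes.

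Of 33 ribosome biogenesis genes, 30 were tested and 0 passed. Above 0 were 8 of them (26.7%, background 53.7%) and below 0 were 22, with a median of -0.085. Lower in Wagyu without overlap were 6, against a background of 9.16%. RRN3, which brings RNA polymerase I to the ribosomal RNA genes, measured 3.82, 3.97 and 3.73 FPKM in Wagyu and 4.72, 7.07 and 6.40 FPKM in Chinese Red Steppes (log2 fold change -0.53, SE 0.17, limma adjusted p = 0.277). LTV1, an assembly factor of the small subunit, measured 2.77, 2.44 and 1.61 FPKM in Wagyu and 2.87, 4.24 and 4.18 FPKM in Chinese Red Steppes (log2 fold change -0.54, SE 0.21, limma adjusted p = 0.315). BOP1, an assembly factor of the large subunit, lay the other way, with 13.1, 14.1 and 15.2 FPKM in Wagyu and 10.3, 11.0 and 8.93 FPKM in Chinese Red Steppes (log2 fold change 0.46, SE 0.14, limma adjusted p = 0.268). WC616 was the highest library for 1 of the 30 genes (3.33%, background 12.9%) and the lowest for 9, unlike for the ribosomal proteins. Among all 9990 genes tested it was the lowest for 1941.

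Of 16 genes of the mTORC1 pathway and of ribosomal protein control, 0 passed, 12 had a fold change above 0 (background 53.7%) with a median of 0.148, and 4 were higher in Wagyu without overlap (MTOR, TSC1, RPS6KB1 and AKT1S1, background 11.4%). MTOR, the kinase itself, measured 5.41, 5.63 and 6.10 FPKM in Wagyu and 5.02, 4.28 and 3.24 FPKM in Chinese Red Steppes (log2 fold change 0.39, SE 0.17, limma adjusted p = 0.361). LARP1, which binds the TOP motif, measured 32.1, 40.4 and 41.3 FPKM in Wagyu and 34.8, 28.0 and 8.80 FPKM in Chinese Red Steppes (log2 fold change 0.84, SE 0.44, limma adjusted p = 0.420). RC6 was far below the other libraries in LARP1, and also in TSC1 (1.21 FPKM against 4.27 to 6.56) and AKT1S1 (54.5 FPKM against 86.8 to 95.2). It was the lowest library for 8 of the 16 genes, against 23.7% of all genes. WC616 was the highest library for 3 of the 16 genes (18.8%, background 12.9%). The list was not split by the direction in which its genes act on the pathway, so these counts say nothing of pathway activity.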

How the data were processed

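Poly(A) libraries of 6 animals were sequenced, and the authors deposited FPKM per gene and library, divided by the length of the gene and the counted reads of the library. Deposited read counts exist for 205 genes that hold no ribosomal protein gene chosen here, and they were used to work out each library's total. Columns of that table with the authors' own comparison were not used. The methods name TopHat and Bowtie, but HISAT2 and UMD3.1 stand in the submitters' processing notes, and which made the values was not settled. Whole reads were recovered from FPKM with a total per library and a gene length that gave whole reads in all libraries (within 1e-09 relative), which held for 16770 of 16770 genes above 0 (100%). Of the 205 genes, 203 equalled their deposited counts, and 99.78 to 99.82% of the totals were recovered. Whether a read is a read pair was not settled. The samples of a breed are separate animals.

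The main test was limma 3.58.1 in R 4.3.3, two-sided and with a mean-variance trend, on log2(FPKM + 1) for 9990 genes with a mean of at least 1 FPKM. A pseudocount of 1 understates changes of low genes. Recovered reads were tested with edgeR 4.0.16 (11672 genes, 8 called) and DESeq2 1.42.0 (12274 genes with an adjusted p, 236 called), scripts were tested on simulated data, and exact tests and shares used Python 3.11.15, scipy 1.17.1, numpy 2.4.6 and pandas 2.3.3. A count of 0 allows up to 3 reads in a library. Alternatives were a pseudocount of 0.1, other filters and scalings, each library left out, canonical genes only, and genes chosen by gene name alone (85 genes, chosen after seeing the data). Members and lists were chosen with earlier results of these data known. Named with values were the paralogues and their parents, the stalk genes, RPSA, RPS6, the 8 smallest p, the 3 highest and 3 lowest levels, the 3 largest SD, and FAU and RACK1. 1 further gene that the rule would name is not reported here. RPL17, RPS7, RPL6, the RPS3A rows and the genes of the related lists were named after their values were seen. A RefSeq table (ARS-UCD2.0) held the names of 90 of the 92 genes, and no sequence or start site was analysed here.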

Additional observations from a re-analysis of the deposited data

How the results depend on the processing

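No ribosomal protein gene passed the threshold in either direction under any of the 15 alternative fits. The median log2 fold change over the genes tested was 0.051, between -0.021 (quantile normalization) and 0.106 (equal sum per library) across settings, and between -0.015 and 0.087 when 1 library was left out. It was 0.016 with edgeR and 0.021 with DESeq2. The number of genes above 0 went from 58 to 37 with quantile normalization, to 75 with an equal sum and to 38 without WC616. The removal of WC616 shows only that these values depend on that library, and the cause was not tested. The difference in the share of summed FPKM was 0.437 points and between 0.178 and 0.598 when 1 library was left out. That of the RPL3L share was -6.73 points, -6.61 in reads, and between -7.69 and -5.11 with a library left out, where 2 against 3 libraries allow no p below 0.2. Genes that passed among all tested were 2 with limma, 0 to 5 under other filters and scalings of FPKM, 0 to 3 with a library left out, 8 with edgeR and 236 with DESeq2. The directions of RPL3, RPL10A, RPS27L, RPS19BP1, RPSA, RPS6, RPS9, RPL19 and RPL3L held in all 15 fits. No paired analysis was possible because the breeds share no replicate number. The planned count of pyrimidine tracts at start sites and its alternatives were not run. Several of the genes tested rest on few reads, among them RPL36A-HNRNPH2 on 5 to 22, the unnamed RPS4X row on 15 to 24 and RPS29 on 15 to 48, which limits their precision.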
